A study of Mus musculus with 4 samples.

Results

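The replication-dependent histone genes were taken as every row of the deposited table whose gene symbol is *H1f1* to *H1f5* or begins with *H2ac*, *H2bc*, *H3c* or *H4c* followed by a number. The symbols selected 66 of 56883 genes, of which 5 encode linker histone H1 and 18, 18, 12 and 13 encode the core histones H2A, H2B, H3 and H4. Cells carrying tdTomato were sorted from the basal telencephalon of C57BL/6J embryos at E14.5 and their total RNA was sequenced, with 2 libraries from *Sst-Cre/tdTomato* embryos (control) and 2 from *Sst-Cre/tdTomato/Dnmt1 loxP2* embryos (*Dnmt1* KO). Both genotypes carried a Cre expressed from the somatostatin gene *Sst* and a tdTomato reporter at *Rosa26* that Cre switches on, and the *Dnmt1* KO embryos in addition carried *Dnmt1* alleles with loxP sites around exons 4 and 5. The sort therefore keeps any cell in which Cre has acted, cells were pooled over several embryos per genotype, and the sources used here do not say whether the 2 libraries of a genotype came from separate litters, so that p-values measure only the spread between these libraries. The comparison asks how the RNA of these genes differs between *Dnmt1* KO and control cells sorted for tdTomato. Markers of cell types other than interneurons were also detected, as given below.

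Replication-dependent histone genes supply the histones that package newly made DNA, and they are transcribed mainly while a cell replicates its genome. Their mRNAs usually end in a short conserved stem-loop in place of a poly(A) tail, the stem-loop-binding protein SLBP binds this hairpin, and the mRNA is degraded when DNA synthesis stops. Neurons that have left the cell cycle rely more on replication-independent variants such as H3.3 and H2A.Z, although some genes of the replication-dependent clusters can also give polyadenylated transcripts in cells that no longer divide.

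All 66 genes were found in the GENCODE annotation of GRCm39. They lie at 5 places in the genome, of which the largest are 2 clusters of 30 genes (chr13:23715220-24118834) and 23 genes (chr13:21899933-22227846) on chromosome 13. Another cluster of 10 genes lies at chr3:96127181-96177448, *H2bc27* and *H2ac25* lie at chr11:58838848-58847656, and *H4c16* stands alone at chr6:136778551-136781413. The representative transcripts have a single exon, except those of *H2bc4*, *H2bc6*, *H2bc22*, *H2bc23* and *H2bc24*, which have 2. A perfect stem-loop, searched as a stem of 6 base pairs that begins with GG and a loop of 4 bases that begins with TT, was found within 150 bases after the stop codon in 59 of the 66 genes (89.4%), against 14 of 21704 other protein-coding genes (0.0645%).

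The stem-loop regions of the member with the highest mean count in each class, of the gene that fell most (*H3c14*) and of the only gene that rose (*H4c16*) are shown because this element sets the family apart. They were read from the GRCm39 genome on the strand of each gene, with the 16 bases of stem and loop in capitals.
H1f2 (chr13:23923490-23923515, + strand): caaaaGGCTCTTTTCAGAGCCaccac
H2ac13 (chr13:21901004-21901029, + strand): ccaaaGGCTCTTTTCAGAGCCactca
H2bc12 (chr13:22220465-22220490, + strand): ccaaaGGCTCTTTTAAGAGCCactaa
H3c2 (chr13:23936798-23936823, + strand): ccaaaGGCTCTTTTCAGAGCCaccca
H4c4 (chr13:23765928-23765953, + strand): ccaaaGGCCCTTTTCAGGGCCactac
H3c14 (chr3:96154638-96154663, + strand): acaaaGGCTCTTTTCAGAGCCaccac
H4c16 (chr6:136780991-136781016, - strand): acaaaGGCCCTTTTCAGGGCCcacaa
The H1, H2A, H2B and H3 genes shown carry a stem of GGCTCT and the H4 genes shown a stem of GGCCCT. *H4c16*, which rose, and *H3c14*, which fell most, both have an intact element. No perfect stem-loop was found in this window for *H2bc21*, *H3c8*, *H4c1*, *H2ac22*, *H2bc22*, *H2bc23* and *H2bc24*. In the last 3 the same hairpin lies in what the annotation calls an intron of the representative transcript.

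The deposited values are normalized counts, that is, the reads of a gene divided by a size factor of the library. The libraries held 8376711 and 7276779 recovered reads in control and 7744944 and 6970247 in *Dnmt1* KO, and the histone genes took 0.848% and 0.847% of them in control and 0.534% and 0.529% in *Dnmt1* KO. *Dnmt1* itself had 2238 and 2341 normalized counts in control and 2164 and 2210 in *Dnmt1* KO (log2 fold change -0.066, SE 0.054, limma adjusted p = 0.461). The 2 floxed exons are not counted apart from the rest of *Dnmt1*, so this is no check of the deletion.

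Most replication-dependent histone genes were lower in *Dnmt1* KO than in control cells. Summed over the 66 genes, the normalized counts came to 63578 and 62911 for control and to 40825 and 40296 for *Dnmt1* KO. Both *Dnmt1* KO libraries thus lay far below both control libraries, at a mean of 64.1% of the control mean (63245 ± 472 against 40560 ± 374, SD, n = 2 libraries each). Of the 64 genes that reached a mean of 10 normalized counts, 51 fell, 1 rose and 12 did not pass the test (limma on log2(normalized count + 1), Benjamini-Hochberg adjusted p below 0.05 over 14323 genes). Over all genes tested, 8.99% fell and 8.30% rose. Both *Dnmt1* KO libraries lay below both control libraries for 58 of the 64 histone genes, against 29.0% of all genes tested, and above them for *H4c16* only, against 28.4%. DESeq2 on the recovered reads called 47 members lower and 1 higher, against 5.17% and 4.80% of all genes, and edgeR called 53 and 1, against 9.09% and 8.56%. Limma without a variance trend called no gene, and at an unadjusted p below 0.05 it had 49 members lower and 1 higher. The median limma log2 fold change of the 64 genes was -0.68, with a range from -2.31 to 0.68, and that of all genes tested was -0.0033. In these bulk libraries fewer cells that make histone mRNA and less histone mRNA per cell cannot be told apart. *H2ac1* and *H2bc1* stood at 0 to 3.58 normalized counts in every library and were not tested.

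**Figure D1:**
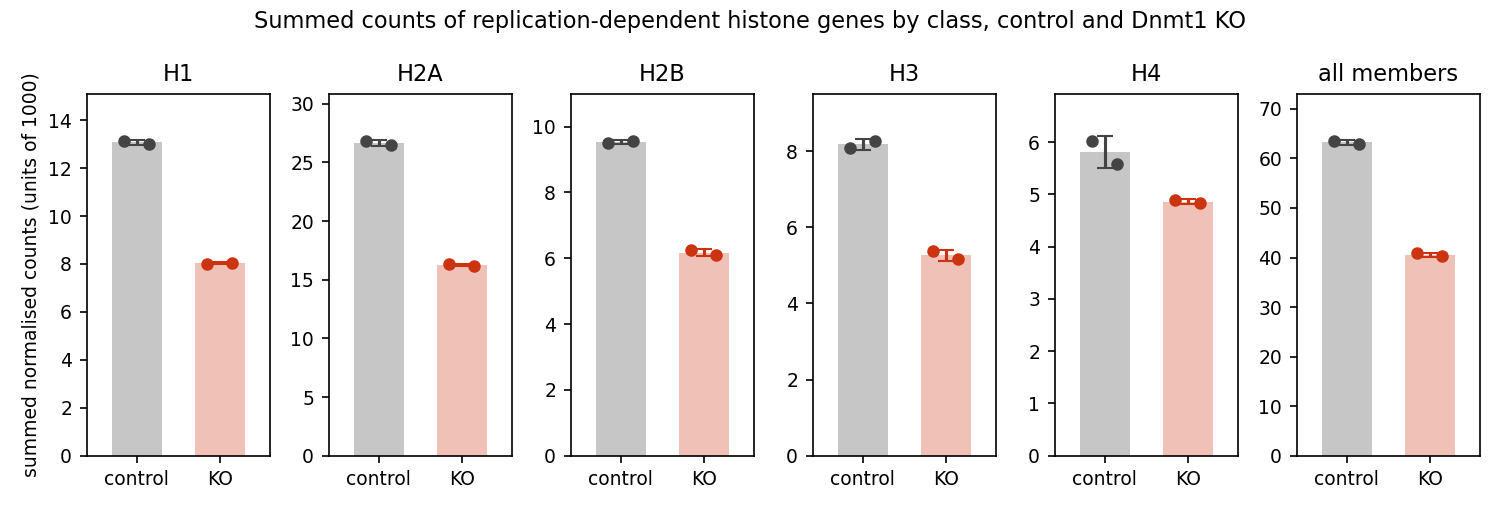
Summed normalized counts (in units of 1000) of the H1, H2A, H2B, H3 and H4 genes and of all 66 members in the control and *Dnmt1* KO libraries. Points are libraries, bars are means of 2 libraries and error bars are SD; in each panel both *Dnmt1* KO points lie below both control points, and the gap is smallest for H4, at 83.7% of the control mean.

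The sums of all 5 histone classes were lower in *Dnmt1* KO. The H1 genes summed to 13143 and 13000.0 in control and 8017 and 8056 in *Dnmt1* KO. The H2A genes, which took the largest share of the counts, summed to 26841 and 26478 in control and 16299 and 16156 in *Dnmt1* KO. The *Dnmt1* KO means were 61.5% of control for H1 and 60.9% for H2A. The H2B sums were 9486 and 9568 against 6242 and 6088, and the H3 sums were 8081 and 8276 against 5369 and 5166, which left 64.7% and 64.4% of the control means. The H4 genes summed to 6028 and 5589 in control and 4898 and 4830.4 in *Dnmt1* KO. At 83.7% of the control mean, H4 had the smallest relative decrease of the 5 classes, and its share of all member counts was 9.48% and 8.88% in control and 12% in both *Dnmt1* KO libraries. After removal of a smooth trend with transcript length and GC content, the log2 ratios of the sums moved from -0.63 to -0.41 for H2B, from -0.63 to -0.42 for H3 and from -0.26 to -0.043 for H4, so that little of the H4 difference was left. The difference between classes was not tested.

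**Figure D2:**
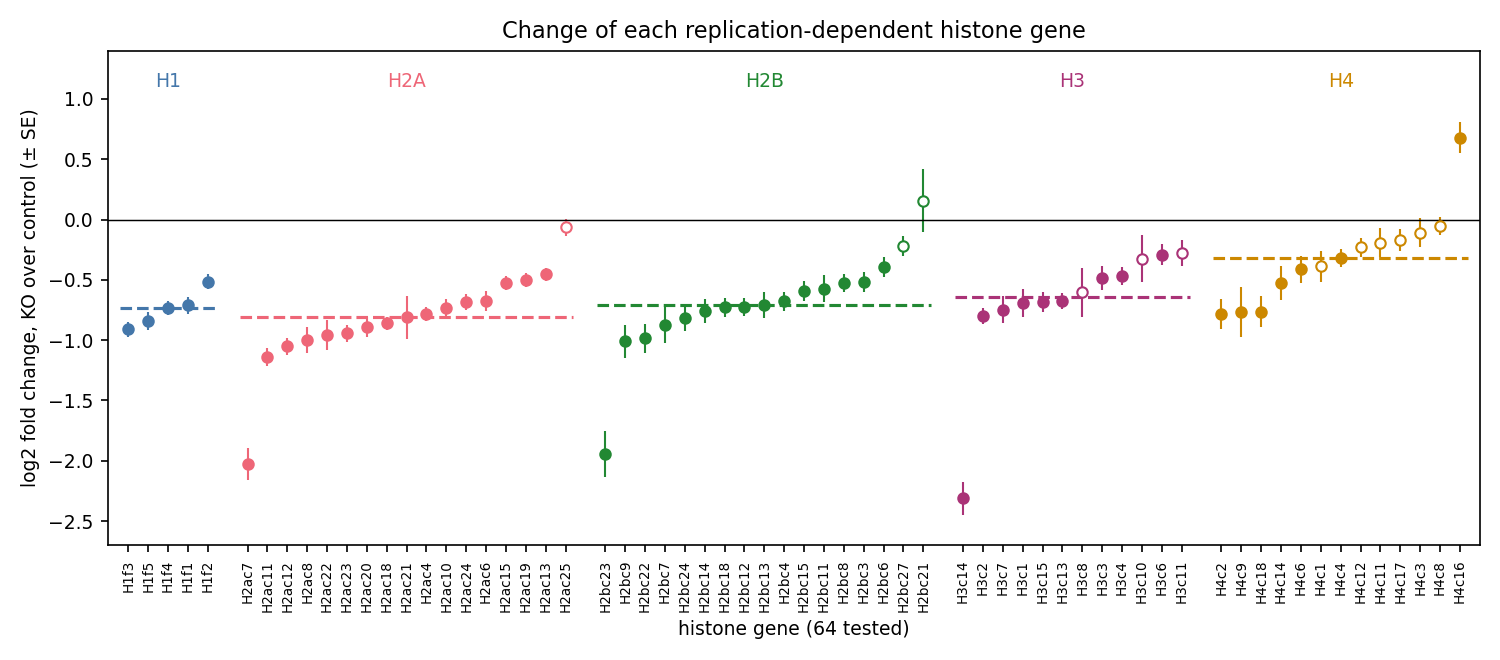
Log2 fold change of *Dnmt1* KO over control (± SE from limma) for each of the 64 tested histone genes, sorted within class. Filled points passed the test, open points did not, and dashed lines are class medians, which run from -0.81 for H2A to -0.32 for H4; *H4c16* is the only filled point above 0.

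All 5 linker histone genes fell, where 8.99% of all genes tested fell. H1 proteins bind the DNA that enters and leaves the nucleosome and help to compact chromatin. *H1f2*, the H1 gene with the highest mean count, had 4215 and 4499 normalized counts in control and 2844 and 3270.1 in *Dnmt1* KO. *H1f3* had 3299 and 3022 in control and 1769 and 1594 in *Dnmt1* KO. The groups did not overlap for either gene, and the log2 fold changes were -0.51 (SE 0.06) for *H1f2*, the smallest of the class, and -0.91 (SE 0.06) for *H1f3*, the largest. *H1f4* had 3223 and 3258 in control and 2058 and 1849 in *Dnmt1* KO, and *H1f5* had 1316 and 1184 against 698 and 695. Their log2 fold changes were -0.73 and -0.84, and *H1f1* fell by a similar amount (-0.71). Limma adjusted p over the 5 genes ran from 1.7e-07 to 3.68e-05. A median of 4.50% of their 75-base windows also occurred in another gene, the lowest of the 5 classes. *H1f4* was highest, at 30.1%, and overlaps *H2bc6* by 528 bp on the same strand.

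Of the 17 H2A genes tested, 16 fell and *H2ac25* did not pass the test, where 8.99% of all genes tested fell. H2A pairs with H2B in the nucleosome. *H2ac13*, the member with the highest mean count of the class, had 3070.3 and 3195 normalized counts in control and 2276 and 2297 in *Dnmt1* KO (log2 fold change -0.45, SE 0.05). It thus had the smallest decrease of the H2A genes that passed. The largest was seen in *H2ac7*, with 687 and 505 in control and 144 and 143 in *Dnmt1* KO (log2 fold change -2.03, SE 0.13, limma adjusted p = 9.79e-08). The *Dnmt1* KO libraries held 24.1% of its control mean. Of the 75-base windows of *H2ac7*, 65.5% also occur in other genes, with 57.4% found in *H2ac12*. Its value thus depends in part on how reads were divided between copies. The 2 control libraries differed from each other more than the 2 *Dnmt1* KO libraries did, but all of the control range lay above the *Dnmt1* KO range.

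The next largest changes of H2A genes were close to a loss of 1 log2 unit. *H2ac11* had 1282 and 1249 in control and 592 and 557 in *Dnmt1* KO (log2 fold change -1.14). *H2ac12* had 1779 and 1671 against 781 and 885 (-1.05). The *Dnmt1* KO means were 45.4% and 48.3% of the control means. *H2ac8* had 702 and 558 in control and 319.6 and 307 in *Dnmt1* KO (log2 fold change -0.997). *H2ac22* had 377 and 333 in control and 197 and 167 in *Dnmt1* KO (-0.96). In neither gene did the groups overlap.

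*H2ac23* had 1803 and 1606 normalized counts in control and 843 and 927 in *Dnmt1* KO (log2 fold change -0.94). *H2ac20* had 901 and 931 in control and 525 and 464 in *Dnmt1* KO (-0.89). *H2ac18* had 2977 and 3133 in control and 1705 and 1656 in *Dnmt1* KO (-0.86). The libraries of each genotype lay close together for these 3 genes and far from the other genotype. *H2ac4* had 2670.3 and 2621 in control and 1487 and 1596 in *Dnmt1* KO (-0.78), and *H2ac10* had 1479 and 1668 against 973 and 916 (-0.73). *H2ac21* was the least certain of the H2A genes that fell, with 217 and 152 in control and 102 and 105 in *Dnmt1* KO (log2 fold change -0.81, SE 0.18, limma adjusted p = 0.0049). Without control replicate 1 its log2 fold change was -0.55 and the limma adjusted p 0.101. The others that passed, *H2ac6*, *H2ac15*, *H2ac19* and *H2ac24*, had log2 fold changes from -0.69 to -0.50.

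Of the 17 H2B genes tested, 15 fell, where 8.99% of all genes tested fell, and *H2bc21* and *H2bc27* did not pass the test. *H2bc12*, the highest of the class by mean count, had 1135 and 1240.4 normalized counts in control and 748 and 689 in *Dnmt1* KO (log2 fold change -0.72, SE 0.08). *H2bc23* had the largest decrease, with 172 and 153 in control and 41.4 and 41.5 in *Dnmt1* KO (log2 fold change -1.94, SE 0.19, limma adjusted p = 6.2e-06). All of its 75-base windows also occur in other genes, above all in *H2bc24*, which had 382 and 385 in control and 224 and 212 in *Dnmt1* KO (-0.81). Summed over this pair, the counts were 554 and 538 in control and 265 and 253 in *Dnmt1* KO, a log2 ratio of -1.07. The sum does not depend on how reads were divided between these 2 copies, whereas the value of each copy does.

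*H2bc9* had 249 and 236 normalized counts in control and 120.3 and 119 in *Dnmt1* KO (log2 fold change -1.01). *H2bc22* had 361 and 316 in control and 176 and 165 in *Dnmt1* KO (-0.98). Both had about 50% of their control level left, 49.4% and 50.3%. *H2bc7* had 225 and 253 in control and 144 and 117 in *Dnmt1* KO (-0.87), and *H2bc14* had 523 and 527 against 291 and 330.0 (-0.76). Both *Dnmt1* KO libraries lay below both control libraries for 16 of the 17 H2B genes tested, against 29.0% of all genes tested. The other 8 that fell had log2 fold changes from -0.73 (*H2bc18*) to -0.39 (*H2bc6*).

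Among the 12 H3 genes, 9 fell and 3 did not pass the test, where 8.99% of all genes tested fell. H3 carries many of the best known histone modifications and pairs with H4. *H3c2* had the highest mean count, 1708 and 1556 in control and 965 and 910.1 in *Dnmt1* KO (log2 fold change -0.80, SE 0.07). *H3c14* had 414 and 383 in control and 73 and 86.3 in *Dnmt1* KO, the largest decrease of any member (log2 fold change -2.31, SE 0.14, limma adjusted p = 5.23e-08). Its *Dnmt1* KO level was 20% of control. The annotated transcript of *H3c14* runs 1162 bases past its stem-loop, and the gene lies at chr3:96154001-96155825 within the long non-coding RNA gene *Gm20634* on the same strand. *Gm20634* also overlaps *H2ac18* and was itself lower, with 960.2 and 899 in control and 275 and 307 in *Dnmt1* KO (log2 fold change -1.67), so that reads of *H3c14* and *Gm20634* are uncertain. *H3c15*, of whose windows 62.6% occur in *H3c14*, fell by less (-0.68).

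*H3c7* had 497 and 469 normalized counts in control and 318 and 259 in *Dnmt1* KO (log2 fold change -0.75). The other 6 H3 genes that fell ranged from -0.69 (*H3c1*) to -0.29 (*H3c6*). *H3c6* passed narrowly (limma adjusted p = 0.0298) and did not pass when control replicate 1, control replicate 2 or *Dnmt1* KO replicate 2 was left out, with adjusted p from 0.0519 to 0.261. In 2 of the 3 genes that did not pass, picked out after their values were seen, the control libraries were far apart. *H3c10* had 283 and 508 in control and 342 and 268 in *Dnmt1* KO (-0.32), and *H3c8* had 168 and 304 against 156 and 142 (-0.60). Without control replicate 1 both passed the test, with log2 fold changes of -0.75 and -1.03 and limma adjusted p of 0.00528 and 0.00139. Without control replicate 2 the values were 0.10 and -0.18, so that a single control library decided the value of each. *H3c10* shares 93.5% of its windows with other genes, mostly *H3c11*, the other gene that did not pass (-0.28).

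The H4 genes moved in both directions. Of the 13, 6 fell, 1 rose and 6 did not pass the test. Over all genes tested 8.99% fell and 8.30% rose with limma, and 5.17% and 4.80% with DESeq2. DESeq2 called 3 lower, without *H4c6*, *H4c9* and *H4c14* (adjusted p = 0.122, 0.142 and 0.085), and 2 passed without each library in turn. *H4c4*, the highest by mean count, had 1217 and 1059 normalized counts in control and 910.4 and 911 in *Dnmt1* KO (log2 fold change -0.32, SE 0.08, limma adjusted p = 0.00894). Without control replicate 1 it did not pass (limma adjusted p = 0.102). *H4c2* had 398 and 353 in control and 239.7 and 198 in *Dnmt1* KO (-0.78). *H4c18* had 327 and 264 in control and 172 and 174 in *Dnmt1* KO (-0.76). In its near-identical copy *H4c17* the change was -0.17 and did not pass, and the pair summed to 781 and 736 in control and 561 and 609 in *Dnmt1* KO, a log2 ratio of -0.38. The 6 genes that did not pass had log2 fold changes from -0.39 (*H4c1*, limma adjusted p = 0.0511) to -0.05 (*H4c8*). *H4c6*, *H4c9* and *H4c14* had log2 fold changes of -0.41, -0.77 and -0.53, and the limma adjusted p of each rose above 0.05 without at least 1 of the libraries, to 0.174, 0.117 and 0.196 at most.

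*H4c16* was the only replication-dependent histone gene that rose. It had 174 and 195 normalized counts in control and 272 and 320.1 in *Dnmt1* KO (log2 fold change 0.68, SE 0.13, limma adjusted p = 0.00181). Both *Dnmt1* KO libraries lay above both control libraries, at 161% of the control mean. The increase passed the test without any 1 of the 4 libraries (largest limma adjusted p = 0.0209) and with DESeq2 (adjusted p = 0.00701). The gene stands apart from the other members on chromosome 6, and its annotated transcript runs 2445 bases past the stem-loop. Of its 75-base windows 45.2% also occur in other genes, mainly the long noncoding genes *Gm40411* and *Gm66579*, which overlap it on the other strand. Among all genes tested, 8.30% rose.

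Apart from *H4c16*, 3 members were picked out after their values were seen because they lie outside the 3 large clusters or changed in the other direction without passing the test. *H2ac25* on chromosome 11 had 999.6 and 969 normalized counts in control and 903 and 983 in *Dnmt1* KO, and the groups overlapped (log2 fold change -0.06, SE 0.07, limma adjusted p = 0.61). Its neighbour *H2bc27* had 611 and 613 in control and 507 and 543 in *Dnmt1* KO (-0.22, limma adjusted p = 0.0829). *H2ac25* lies within *Trim17* on the same strand, a gene that fell (174 and 189 in control, 108 and 87.4 in *Dnmt1* KO), so its reads are uncertain. *H2bc21*, in the chromosome 3 cluster, had 46.5 and 40.8 in control and 43.4 and 54.6 in *Dnmt1* KO (log2 fold change 0.16, limma adjusted p = 0.742) and had no stem-loop in the window searched. It encodes an H2B variant known from non-dividing sensory neurons of the mouse nose. In contrast, 9 of the 10 genes of the chromosome 3 cluster fell (median -0.70). In the 2 chromosome 13 clusters 18 of 23 and 24 of 28 tested genes fell, with medians of -0.72 and -0.68. Among all genes tested, 8.99% fell.

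Per kilobase of transcript, the control level was highest for *H2ac13* (7972 normalized counts per kb), followed by *H2ac4* (5593) and *H2ac19* (5510.1). Among the genes tested it was lowest for *H2bc21* (16.7) and *H4c16* (64.4). The annotated transcript by which the counts were divided is 393 bp long for *H2ac13*, 2620 bp for *H2bc21* and 2863 bp for *H4c16*. The ranking therefore depends in part on the annotation. Of the 75-base windows of *H2ac13*, 99.4% also occur in other genes. The decrease of *H3c14* took its level per kb from 219 to 43.8. Across the 64 genes the log2 fold change was almost unrelated to the mean count (Spearman's rho = 0.04) and to transcript length (0.04). These genes share libraries and in part reads, and the correlations are descriptions.

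Many H2A and H2B genes are arranged head to head and share the promoter region between them. In 11 such pairs the annotated starts lie within 500 bp of each other and the genes do not overlap, and 10 pairs were tested. In 9 of the 10, both partners fell, where 8.99% of all genes tested fell. *H2ac6* and *H2bc4*, which overlap by 301 bp on opposite strands, were not counted among these pairs, and both fell (-0.68 each). *H2ac22* and *H2bc22* fell almost equally (-0.96 and -0.98), as did *H2ac15* and *H2bc15* (-0.53 and -0.59). In other pairs the partners differed: *H2ac7* changed by -2.03 and *H2bc7* by -0.87, *H2bc23* by -1.94 and *H2ac23* by -0.94, and *H2ac20* by -0.89 while *H2bc21* (0.16) did not pass. All 75-base windows of *H2bc23* and 65.5% of those of *H2ac7* also occur in other genes. The values of *H2bc23* and *H2ac7* therefore depend in part on how reads were divided. Summed with its near-identical copy *H2bc24*, *H2bc23* had a log2 ratio of -1.07. The differences within pairs were not tested.

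In the window from 250 bases before to 50 after the annotated start, searched on both strands, CCAAT was found in 81.8% of the 66 histone genes and in 39.9% of 21770 protein-coding genes. TATAAA was found in 54.5% against 13.2%. The octamer ATTTGCAT was found in 21.2% against 1.63%, in 7 of 18 H2A genes and 7 of 18 H2B genes and in no member of the other classes. H4 promoters held CCAAT least often, in 4 of 13, against 18 of 18 for H2A, 17 of 18 for H2B, 11 of 12 for H3 and 4 of 5 for H1. These matches are descriptions of the letters in the window.

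Copies of histone genes are so alike that reads cannot always be assigned to 1 of them. A median of 48.9% of the 75-base windows of a member, the length of a read, occurred exactly in another gene, overlapping genes on either strand included, with a range from 0% to 100%. The medians by class were 4.50% for H1, 74.0% for H2A, 44.3% for H2B, 59.0% for H3 and 35.5% for H4. Among the 8 members that share at most 10%, all tested, 7 fell and none rose, with a median log2 fold change of -0.52. Those that fell were 4 H1 genes, *H2bc6*, *H4c4* and *H4c14*. Among the 28 that share at least 60%, 22 fell and none rose, with a median of -0.73. The shares over all genes tested were 8.99% lower and 8.30% higher. In the near-identical pair *H2ac18* and *H2ac19* the summed counts were 5757 and 6172 in control and 3799 and 3670.0 in *Dnmt1* KO (log2 ratio -0.68), and in *H2ac23* and *H2ac24* they were 3945 and 3537 against 2169 and 2133 (-0.80). Annotated genes on either strand overlap 44 of the 66 members, and of the 22 that overlap none 18 fell and none rose (median -0.64).

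**Figure D3:**
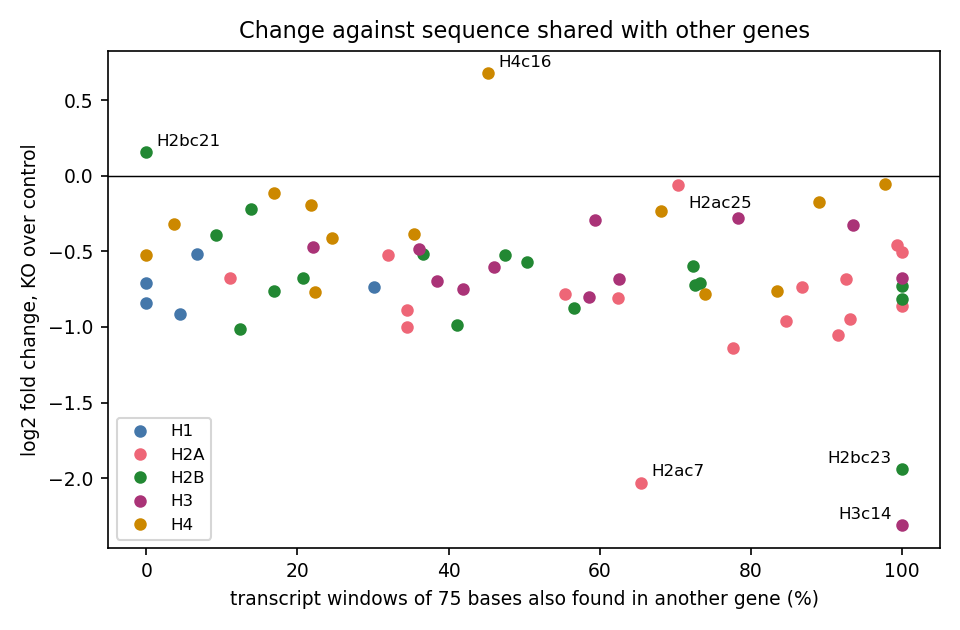
Log2 fold change of *Dnmt1* KO over control against the percentage of a member's 75-base transcript windows that also occur in another gene, for 64 tested members coloured by class. Most points lie below 0 along the whole axis (Spearman's rho = -0.21); *H3c14*, *H2ac7* and *H2bc23* lie apart at the bottom and *H4c16* at the top.

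Most members have short transcripts rich in G and C. The median transcript length of the members tested was 556 bp, against 3375 bp for all genes tested, and their median GC content 57.8% against 49.9%. After removal of the smooth trend of each library with length and GC content, 44 members fell, against 7.65% of all genes, and *H4c16* rose (0.64), against 10.3%. The median of the members moved from -0.68 to -0.47. Those that no longer passed were *H2bc11*, *H3c3*, *H3c6*, *H4c4*, *H4c6*, *H4c9* and *H4c14*. The class medians became -0.59 for H1, -0.62 for H2A, -0.47 for H2B, -0.40 for H3 and -0.13 for H4. Of the H4 genes, only *H4c2* (-0.53) and *H4c18* (-0.51) then fell, and the H4 sum was nearly level between the genotypes (log2 ratio -0.043 against -0.26 without the correction). *H3c14* (-2.22), *H2ac7* (-1.78) and *H2bc23* (-1.77) kept most of their decrease. Transcripts that are short and rich in G and C include the histone genes themselves, and what part of the decrease the trend accounts for was not tested.

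**Figure D4:**
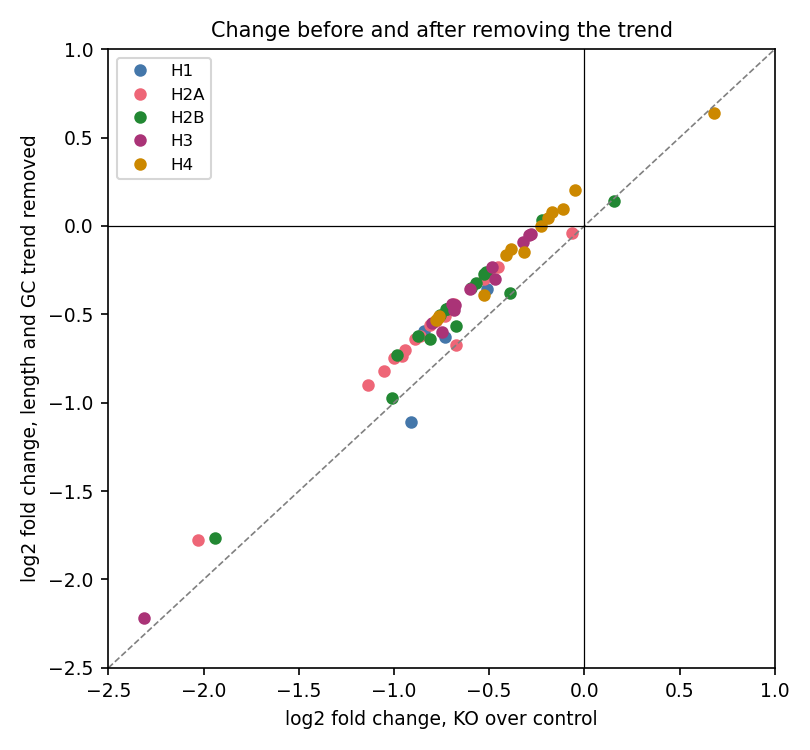
Log2 fold change of *Dnmt1* KO over control for 64 tested histone genes before (x axis) and after (y axis) removal of the trend with length and GC content, coloured by class. The dashed line marks equal values; most points lie above it, nearer 0, while *H4c16* at the top right and the 3 points at the bottom left keep most of their change.

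Most replication-independent histone variants can also be made outside DNA replication. Of the 11 tested, 3 fell and none rose (median -0.16), where 8.99% of all genes tested fell and 8.30% rose. *H2ax*, which marks DNA breaks when phosphorylated, had 955 and 918 normalized counts in control and 608 and 658 in *Dnmt1* KO (log2 fold change -0.57). *H2az1*, which encodes H2A.Z, had 1451 and 1436 in control and 1001 and 965 in *Dnmt1* KO (-0.55). These 2 had the largest decreases of the list, and *Macroh2a1* the smallest that passed (-0.24). The H3.3 genes had 3934 and 4013 against 3663 and 3728 for *H3f3a* (-0.10) and 5321 and 5504 against 5531 and 5344 for *H3f3b* (0.01), and neither passed the test. *H1f0*, the linker histone of cells that have stopped dividing, had 1949.9 and 1872 in control and 1792 and 1628 in *Dnmt1* KO (-0.16, limma adjusted p = 0.0892).

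Of the 16 genes for transcription, 3′ processing and decay of histone mRNA, 2 fell and none rose (median -0.043). Among all genes tested 8.99% fell and 8.30% rose, so this count lies near that share. *Slbp*, whose protein binds the stem-loop, had 389 and 405 normalized counts in control and 284 and 251 in *Dnmt1* KO (log2 fold change -0.57, SE 0.11, limma adjusted p = 0.00171). It was the member of this list with the largest decrease, and *Srrt*, which encodes a partner of the nuclear cap-binding complex, was the other that fell (-0.25). Without control replicate 1, or without *Dnmt1* KO replicate 1, 1 gene of the list fell. *Npat*, the coactivator of histone gene transcription, had 197 and 189.9 in control and 167 and 175 in *Dnmt1* KO (-0.18, limma adjusted p = 0.4). Of 17 histone chaperones and importers 7 fell and none rose (median -0.14), from -0.70 for *Chaf1b*, a subunit of the chromatin assembly factor that acts at replication forks, to -0.23 for *Ssrp1*, a subunit of the chaperone FACT. Without control replicate 2 the count of chaperones that fell was 3.

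Genes of DNA replication and mitosis were lower together with the histone genes, where 8.99% of all genes tested fell and 8.30% rose. Of 32 S phase genes 17 fell and none rose (median -0.53), with a summed level of 8954 and 9192 in control and 6548 and 6699.8 in *Dnmt1* KO. *Pcna*, the sliding clamp of the replication fork, had 479.6 and 493 in control and 362 and 409 in *Dnmt1* KO (log2 fold change -0.34). The genes of this list that passed ranged from -1.03 for *E2f1*, a transcription factor of the entry into S phase, to -0.32 for *Mcm7*, a subunit of the replicative helicase. Of 20 mitosis genes 19 fell and none rose (median -0.64), with a summed level of 10011 and 9766 in control and 6693 and 6878 in *Dnmt1* KO. *Mki67*, the proliferation marker, had 2553 and 2500.2 in control and 1826 and 1755 in *Dnmt1* KO (-0.50), and the range of those that passed was -1.26 for *Aurkb* to -0.27 for *Cenpf*. In no library did a sum of these lists in *Dnmt1* KO reach the control range. Without control replicate 2, 10 S phase genes fell, and without control replicate 1, 12 mitosis genes fell.

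Markers of other cell types also differed between the genotypes, and their part in the histone result was not tested. The shares over all genes tested were 8.99% lower and 8.30% higher. The interneuron list rose in 15 of 17 genes tested, and its sum was 25049.9 and 25409 in control and 38820.4 and 39059 in *Dnmt1* KO. *Maf* rose most (1.12) and *Dlx2* least among those that rose (0.34), *Calb2* fell (-0.94), and *Pvalb*, a marker of later stages, was at 0 in every library. *Sst*, the gene that drives Cre, was detected in every library at 5580.4 and 5963 in control and 8303 and 7825 in *Dnmt1* KO. Radial glia and progenitor genes fell in 8 of 16 cases and rose in 1, *Sox2* (0.40), and summed to 12955 and 12858 in control and 7895 and 8194 in *Dnmt1* KO. The largest decrease of that list was in *Nes* (-1.03) and the smallest that passed in *Notch1* (-0.55). Of 10 genes of the excitatory lineage 8 fell and *Bcl11b* rose (0.45), with *Neurog2* (-1.40) at the lower end. The sums of this list were 6493 and 6513 in control and 6281 and 6035 in *Dnmt1* KO. *Bcl11b* made up most of these sums, with 3349 and 3317 against 4596 and 4514, so they do not show the decrease of the genes that fell.

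Markers of blood and vessels were present at lower levels in *Dnmt1* KO. All 8 erythroid genes tested of 12 fell, from -3.44 for *Hbb-y* to -1.52 for *Hbb-bs*, where 8.99% of all genes tested fell. The 12 genes of this list summed to 2615 and 2434 in control and 587 and 593 in *Dnmt1* KO, and *Gata1* was at 0 in every library. Of 14 vascular, stromal and microglial genes tested of 18, 11 fell, from -1.72 for *Cdh5* to -0.98 for *Col3a1*. All 18 genes summed to 929.8 and 997 in control against 413 and 438 in *Dnmt1* KO. Without control replicate 2, 5 genes of this last list fell. The libraries of the 2 genotypes did not overlap in the sum of any of these 5 lists.

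**Figure D5:**
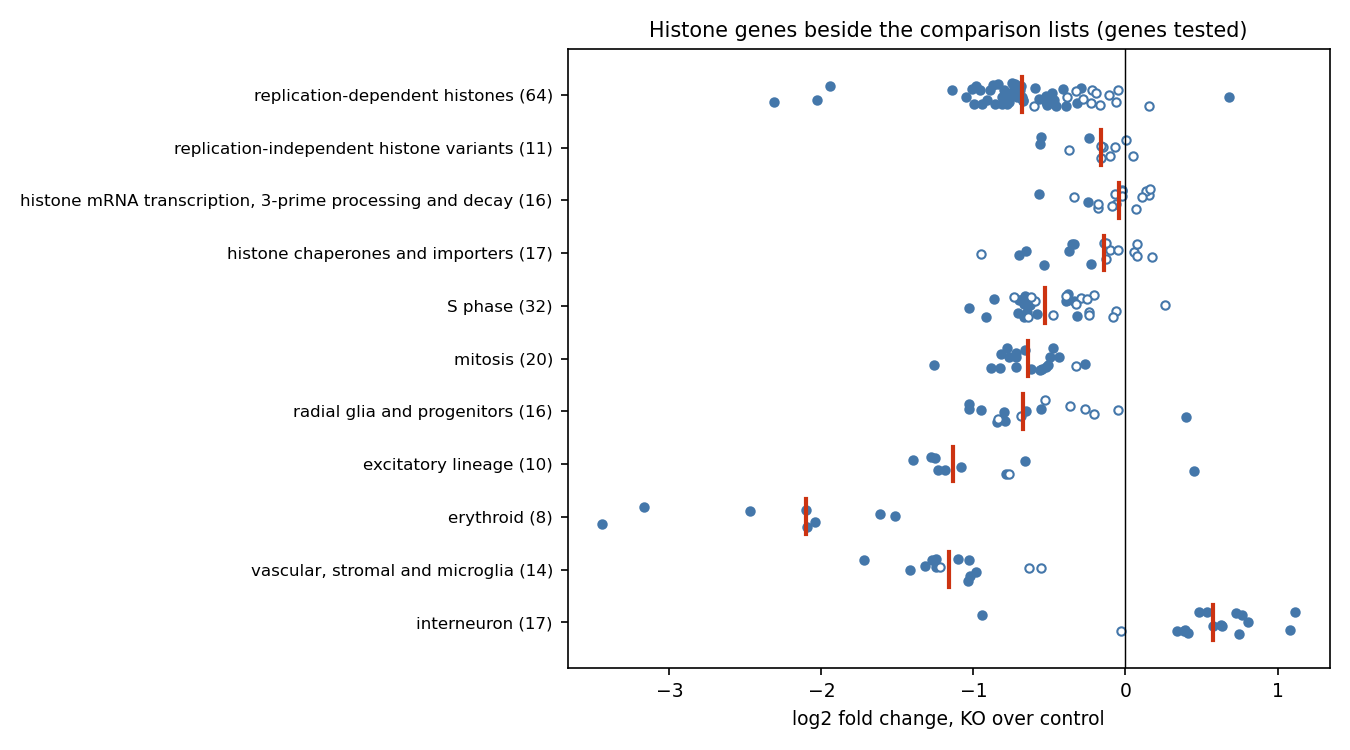
Log2 fold change of *Dnmt1* KO over control for the 64 tested histone genes and for the tested genes of the 10 comparison lists (number in brackets); filled points passed the test, open points did not, and red bars are medians. Values are without removal of the trend with length and GC content, which moved the histone median to -0.47. The histone median of -0.68 shown here lies near those of the mitosis (-0.64) and radial glia (-0.67) lists. It lies below those of the S phase list (-0.53) and the replication-independent variants (-0.16), and the interneuron median of 0.58 lies on the other side of 0.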

How the data were processed

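Total RNA libraries of 2 control and 2 *Dnmt1* KO pools of sorted E14.5 cells were analysed, grouped by the sample titles. Per the methods and the labels, the kit was a stranded total RNA kit with rRNA depletion, so that transcripts without a poly(A) tail were also captured, and reads were 75 bases long and paired. The authors ran the nf-core/rnaseq pipeline (Trim Galore, STAR on GRCm39, Salmon) and deposited a signal per gene and library, the gene count divided by a DESeq2 1.32.0 size factor. The annotation version and strand setting are not given in the sources used here. Salmon divides reads that match several genes by estimate. All 89965 values above 0 (100%) were whole multiples of 1 read to within 0.0001, and the reads were recovered from them. No other per-sample column was present (0 unused).

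Limma 3.58.1 (R 4.3.3) was applied to log2(value + 1) of the 14323 of 56883 genes whose mean normalized count reached 10, by eBayes with a variance trend, genotype as the only term and two-sided tests, with Benjamini-Hochberg adjustment. Fold changes are on the log2(count + 1) scale, which understates the change of low genes. edgeR 4.0.16 on the recovered reads called 2528 genes, against 2476 with limma. DESeq2 1.42.0, pseudocounts of 0.5 and 10, count minimums of 1 and 50, TMM and quantile scaling, no variance trend, removal of a spline over transcript length and GC content (5 degrees of freedom), a replicate block and leaving out each library were the alternatives. The fits were tested on simulated data. Positions, transcripts and stem-loops came from GENCODE M39 on GRCm39, which matched 56322 genes, read with pysam 0.24.0 in Python 3.11.15 with pandas 2.3.3 and matplotlib 3.10.9.

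Members and gene lists were chosen with earlier results of these data known. Values in every library are given for the highest member of each class, for members that passed with a mean of at least 100 (at most 25, largest change first) and for any that passed against its class sum. From the other lists, fixed examples and the genes with the largest and smallest change that passed are named. Protein sequences were not used here.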

Additional observations from a re-analysis of the deposited data

How the results depend on the processing

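The count of members that fell was 51 and lay between 44 and 56 under all alternatives except limma without a variance trend, where no gene passed at an adjusted p below 0.05 (0 genes, 0 members lower, 0 higher; 3339 genes, 49 members lower and 1 higher at an unadjusted p below 0.05). DESeq2 called 47 members lower and edgeR 53, and *H4c16* was the 1 member called higher in both. Over all genes, DESeq2 called 1317, against 2476 with limma and 2528 with edgeR, and leaving out 1 library gave 1525 to 2205 genes and 48 to 53 members lower. Of the 51 members, 45 passed without each library in turn. With the trend over length and GC content removed, 44 members were lower, and the log2 ratios of the class sums were -0.62 (H1), -0.50 (H2A), -0.41 (H2B), -0.42 (H3), -0.043 (H4) and -0.45 (all). Quantile scaling gave -0.76 for H1, -0.76 for H2A and -0.68 for all members. Leaving out 1 library moved the sums' log2 ratios between -0.71 and -0.69 (H1), -0.73 and -0.71 (H2A), -0.65 and -0.61 (H2B), -0.66 and -0.61 (H3), -0.31 and -0.20 (H4) and -0.65 and -0.63 (all). Beside the fit with no variance trend, 4 of 480 values of the 30 named members lost the threshold, all in *H2ac21* and *H4c4*, and no direction turned.

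Of the comparison lists, DESeq2 called 3 chaperones, 11 S phase genes and 7 vascular, stromal and microglial genes lower. Leaving out 1 library gave 1 to 2 genes lower for histone mRNA processing, 3 to 7 for chaperones, 10 to 16 for S phase, 12 to 18 for mitosis and 5 to 10 for the vascular list. The lowest counts came without control replicate 1 (processing and mitosis), without *Dnmt1* KO replicate 1 (processing) and without control replicate 2 (chaperones, S phase and vascular).

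The replicate numbers were not treated as pairs. Deviations of same-numbered libraries correlated at -0.085 over 2 pairs, and no label ties a number to a litter or batch. With a replicate block 56 members were lower and 2957 genes were called, and 46 and 3102 with the trend over length and GC content also removed.

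With 2 libraries per genotype each SD rests on 2 values. Windows of 50 and 150 bases gave median shared shares of 57.5% and 26.7%.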

Other observations

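Histone pseudogenes inside the clusters, which the rule on symbols left out, were also measured. *H2ac14-ps*, in the 23-gene cluster of chromosome 13, had 497 and 459 normalized counts in control and 77.9 and 114 in *Dnmt1* KO. Its log2 fold change was -2.33 (SE 0.16), a decrease of the size of that of *H3c14* (-2.31). *H2ac14-ps* shares 75-base windows with *H2ac22*, so its count depends in part on how reads were divided. Reads of *H3c14* are uncertain as well. *H2ac5-ps* had 69.8 and 56.1 in control and 18.7 and 16.4 in *Dnmt1* KO (-1.78), and *H2bc26-ps* on chromosome 11, which GENCODE M39 lists as the protein-coding *H2bc26*, had 58.2 and 44.9 against 50.3 and 36.1 (-0.26, limma adjusted p = 0.581). Of the 8 other annotated genes tested within the spans of the clusters, 3 fell and none rose. Among all genes tested 8.99% fell and 8.30% rose. *Gm20634* (-1.67) and *Gm42743* (-0.63) overlap histone genes on chromosome 3, and *Trim17* (-0.89) contains *H2ac25*, each on the same strand. Whether their reads come from the histone genes was not tested. *Zfp184*, a zinc finger gene inside the same cluster as *H2ac14-ps* that overlaps no member, had 273 and 233 in control and 251 and 245 in *Dnmt1* KO (-0.03). These genes were picked out after their values were seen.

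Members whose annotated transcript ends within 100 bases of the stem-loop, or before it, numbered 35 among those tested, of which 30 fell (median log2 fold change -0.71). Of the 22 whose annotated transcript runs more than 100 bases past the stem-loop, 17 fell and 1 rose (median -0.53). Of the 7 with no stem-loop found in the window 4 fell (median -0.81), where 8.99% of all genes tested fell. Those 4 were *H2bc22*, *H2bc23* and *H2bc24*, whose hairpin lies in an annotated intron, and *H2ac22*. In *H2ac22* a hairpin of 5 base pairs lies outside the annotated gene. *H2bc21*, *H3c8* and *H4c1* did not pass. This group therefore does not stand for genes that lack the element. The difference between these groups was not tested, and the files do not show which transcript ends the reads came from.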
